A study of Mus musculus with 6 samples.

Results

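The core splicing factor families are the SR proteins, the heterogeneous nuclear ribonucleoproteins (hnRNPs), the proteins of the small nuclear ribonucleoproteins (snRNPs), the subunits of splicing factors SF3A and SF3B, and the LSM proteins. With earlier results of these data known, members were chosen by gene symbol. The rule took every probe whose symbol begins with Srsf, Sf3a, Sf3b or Lsm followed by a number, or with Snrp, Hnrnp or Hnrp. This gave 131 probes of 64 genes, out of 31692 probes and 16361 named genes in the table. The hnRNPs had 20 genes and 50 probes, the LSM proteins 13 genes and 19 probes, the snRNP proteins 12 genes and 21 probes, the SR proteins 10 genes and 22 probes, and the SF3 subunits 9 genes and 19 probes. Of the 64 genes, 23 had a single probe and 41 had 2 or more, up to 7 for Hnrnpr. Genes with other symbols, such as Snrnp70, were counted with the other splicing genes.

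RNA came from whole spleens of female mice of the NOD strain, in which autoimmune diabetes arises spontaneously. The MOTS-c group (3 arrays) received the mitochondrially encoded peptide MOTS-c by intraperitoneal injection every day at 0.5 mg/kg from 6 weeks of age, and the vehicle group (3 arrays) received a scrambled version of the peptide. Spleens of both groups were taken at 18 weeks after a fast of 16 to 18 h, and no allele other than the NOD background is labelled. Whether each array holds RNA of its own mouse is not labelled, so every p-value covers the spread between these samples only, which may be technical, and the small number of arrays limits the precision.

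Splicing removes introns through the spliceosome. Most snRNPs hold a short RNA inside a ring of Sm proteins, while the RNA of the U6 snRNP is bound by the related ring of LSM2 to LSM8. The U1 snRNP recognises the start of an intron, and the U2 snRNP, helped by SF3A and SF3B, recognises the branch point near its end. SR proteins mostly favour the use of an exon they bind, and many hnRNPs oppose it, so their balance sets alternative splicing, including that of the CD45 transcript in lymphocytes.

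A level below is the authors' quantile-normalized log2 signal of a probe, and a difference is the mean of the MOTS-c arrays minus the mean of the vehicle arrays on that log2 scale, with its SE from limma. Levels are compared within a probe only, since the brightness of different probes does not measure their RNAs' relative amounts. A gene is represented by its brightest probe unless a probe is named. Because 2 probes of 1 gene often gave different answers, the probe pairs behind the widest disagreements are shown first. Each line gives the last 30 bases of a 60-base probe as the array file writes it, and capitals mark AATAAA, the main polyadenylation signal, searched in the probe as written and not on its other strand. The positions of the whole probes are on mm9.
Snrpd3, brighter probe (chr10:74998027-74998086, plus strand): agcgaagataatattctccattgaagagaa
Snrpd3, dimmer probe (chr10:74999676-74999735, plus strand): atgtgtctgcttagcctttgctgtcccagt
Srsf2, brighter probe (chr11:116711211-116711237, minus strand): actccagtcacccgggccttgcatataaat
Srsf2, dimmer probe (chr11:116712806-116712865, minus strand): gaacttttggaaccccaaaagaaagttaca
Lsm11, brighter probe (chr11:45741783-45741842, minus strand): caaatgggagtctggaaactgtAATAAAga
Lsm11, dimmer probe (chr11:45747465-45747524, minus strand): ccaaaaaggaagcggattccaaatctgcag
Hnrnph3, brighter probe (chr10:62478198-62478257, minus strand): aggttgtttcatttgttgcatactttgact
Hnrnph3, dimmer probe (chr10:62480590-62480649, minus strand): ttgacacctagagaacttaatgtagaaata
Only the brighter Lsm11 probe of these 8 holds the signal, which starts at base 53 of the probe. The signal was found in 12 of the 131 member probes (9.16%) and in 11% of all probes of the table. The array design lists different transcript records for the 2 probes of Snrpd3, Srsf2 and Hnrnph3, and the same record for both Lsm11 probes. Whether different records stand for different transcripts was not determined, nor was the exon or untranslated region of a probe. The file's position of the brighter Srsf2 probe covers 27 bases, fewer than the probe holds.

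No probe of the table passed an adjusted p of 0.05 (0%; limma with Benjamini-Hochberg adjustment), the smallest adjusted p being 0.082, while 8198 probes (25.9%) had an unadjusted p under 0.05. Member probes were bright: when all genes were ranked by level and cut into 4 equal bins, 52 of the 64 lay in the top bin and none in the lowest. MOTS-c arrays and vehicle 3 were on slide 2, while vehicle 1 and vehicle 2 were on slide 1, so slide 2 alone gives MOTS-c against 1 vehicle array. All 16 markers of dividing cells were lower with MOTS-c, with a mean level of 12.71 to 13.15 on the MOTS-c arrays and 13.63 to 14.18 on the vehicle arrays. The 16 erythroid markers were lower too (13.39 to 13.62 on the MOTS-c arrays, 14.13 to 14.73 on the vehicle arrays). All 12 T cell, 10 B cell and 7 NK cell markers found were higher, with vehicle 1 far the lowest array in each of these 3 lists. The T and B cell markers that define a spleen were bright: the T cell list averaged 12.61 to 12.68 on the MOTS-c arrays and 10.60 to 12.14 on the vehicle arrays, and the B cell list 12.33 to 12.54 and 10.59 to 12.30. All 11 neutrophil markers were higher in mean, with overlapping groups, but 7 of the 11 were lower against vehicle 3 alone (median −0.084). Vehicle 3 held the highest level of the 4 pancreas and fat markers found, 13.68, against 9.07 to 10.96 on the MOTS-c arrays. The part of these cells in the values below was not tested, and in whole spleen a smaller number of cells of a type and less RNA per cell cannot be told apart.

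Over the 64 member genes, 38 were lower and 26 higher with MOTS-c, with a median difference of −0.063. Over all 16361 genes the median was 0.062 and 43.6% were lower. At an unadjusted p under 0.05, 10 member genes were lower and 3 higher, beside 13% of all genes lower and 13.3% higher at that threshold. None reached an adjusted p of 0.05; the smallest over the 131 member probes was 0.102, so none was under 0.1, as 6.49% of all probes were. All 3 MOTS-c arrays lay below all 3 vehicle arrays for 16 member genes and above them for 7, where 16.3% of all genes were separated downward and 19.4% upward. In the top bin by level, where most members lay, 930 of 4090 genes were separated downward and 1041 upward. At an unadjusted p under 0.05 (limma), 673 genes of that bin were lower and 640 higher. The single differences of the members were small, between −0.65 for Srsf3 and 0.50 for Lsm11. By family, the median was −0.13 for snRNP proteins, −0.12 for LSM proteins, −0.11 for hnRNPs, −0.042 for SR proteins and 0.055 for SF3 subunits.

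**Figure D1:**
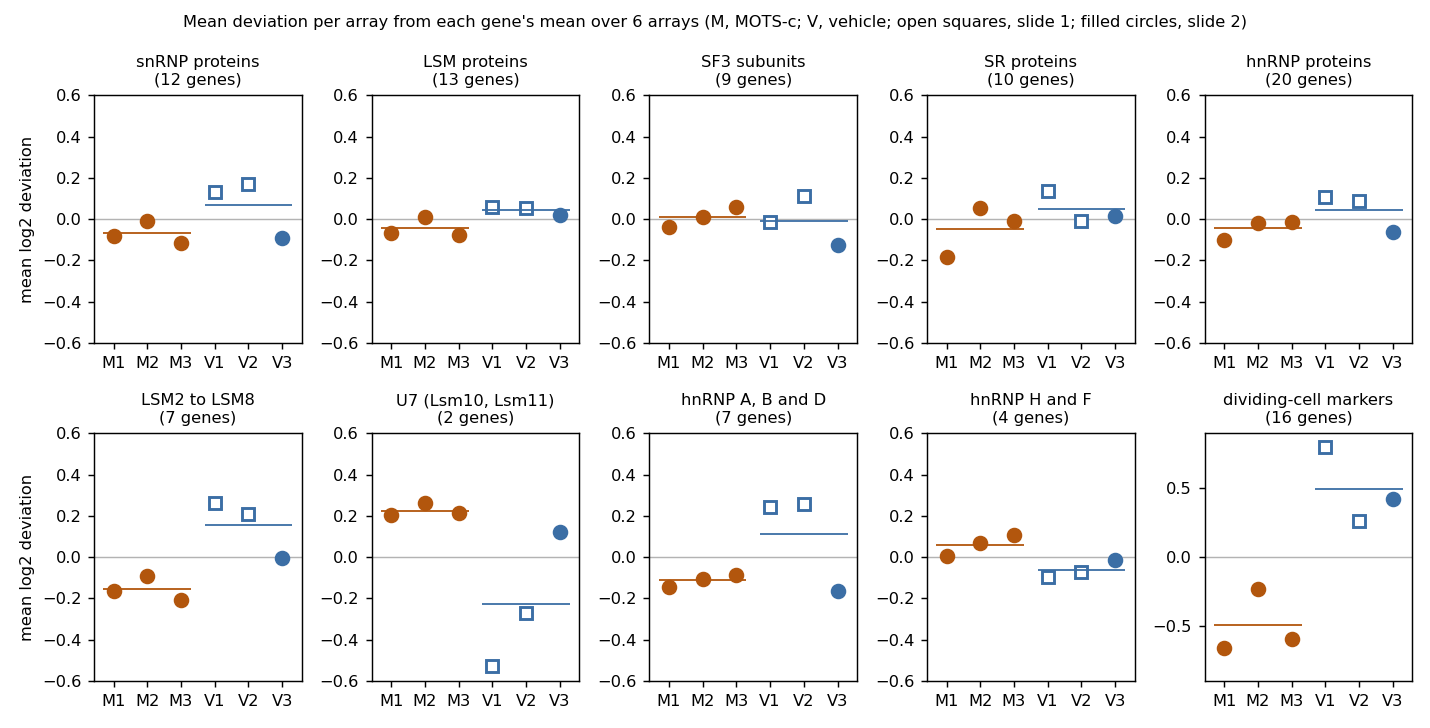
Mean log2 deviation on each array (M, MOTS-c; V, vehicle) from each gene's mean over the 6 arrays, for the 5 families, 4 groups within them and the dividing-cell markers, which have a wider axis; lines are group means. On the panels for snRNP proteins and for hnRNP A, B and D, vehicle 3 (slide 2) lies with the MOTS-c arrays and below vehicle 1 and 2 (slide 1, open squares).

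Among the snRNP proteins, 9 of 12 genes were lower with MOTS-c and 3 higher. The family's mean deviation was −0.082, −0.010 and −0.12 on MOTS-c arrays 1 to 3, against 0.13, 0.17 and −0.094 on vehicle arrays 1 to 3. Vehicle 3 thus lay inside the MOTS-c range, and vehicle 1 and 2 stood above all other arrays.

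The Sm ring is shared by the U1, U2, U4 and U5 snRNPs. Snrpf, the ring's F subunit, had the lowest difference of the family: levels of 12.57, 12.88 and 12.66 on the MOTS-c arrays, against 13.39, 13.22 and 12.96 on the vehicle arrays. The groups did not overlap, and the difference was −0.48 ± 0.17 (1.40-fold lower; adjusted p = 0.14, limma), or −0.25 against vehicle 3 alone. Snrpd1 and Snrpe, 2 more ring subunits, had differences of −0.34 ± 0.15 and −0.32 ± 0.15, also without overlap, and −0.17 and −0.13 against vehicle 3 alone. Snrpg, another ring subunit, had the brightest probe of the snRNP genes, at 15.13, 15.25 and 15.12 with MOTS-c and 15.25, 15.28 and 15.21 with vehicle. Its groups overlapped and its difference, −0.076 ± 0.12, was within its error (adjusted p = 0.71, limma). Snrpb, Snrpd3 and Snrpd2 lay between −0.080 and 0.011. Subunits of 1 ring thus had differences both beyond and within their errors. None passed the adjusted threshold, and the subunits were not tested against each other.

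Snrpn encodes SmN, a relative of the SmB subunit made from an imprinted gene and known chiefly from brain. Its probe was the dimmest of the 64, and its mean was higher with MOTS-c, with levels of 8.44, 8.10 and 8.12 on the MOTS-c arrays, against 7.62, 7.88 and 8.05 on the vehicle arrays. The groups did not overlap (difference 0.37 ± 0.17, adjusted p = 0.22, limma; 0.17 against vehicle 3 alone). Its second probe, dimmer still, gave 0.56 ± 0.18, again with no overlap, and 0.20 with normexp background correction.

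The snRNP-specific proteins here are Snrpa and Snrpc of the U1 snRNP and Snrpa1 and Snrpb2 of the U2 snRNP. Snrpc, which helps U1 engage the start of the intron, had levels of 12.996, 13.09 and 13.03 with MOTS-c, against 13.57, 13.51 and 13.24 with vehicle. Each MOTS-c array was below each vehicle array (difference −0.40 ± 0.14, adjusted p = 0.15, limma; −0.20 against vehicle 3 alone). Snrpb2 had levels of 13.02, 13.03 and 12.83 with MOTS-c, against 12.81, 12.99 and 12.84 with vehicle, overlapping groups whose difference of 0.080 ± 0.13 was smaller than its error. It turned negative with the 75th percentile scaling described below. Snrpa and Snrpa1 had differences of −0.18 and −0.20 with all 3 vehicle arrays, but 0.24 and 0.16 against vehicle 3 alone.

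The LSM genes are given by the ring their proteins form. All 7 genes for LSM2 to LSM8, the ring on U6 RNA, were lower in mean with MOTS-c, with a median difference of −0.37. Of the 7, 4 had an unadjusted p under 0.05, which 13% of all genes had in that direction, and none passed the adjusted threshold. In the top bin by level, 673 of 4090 genes were lower at that unadjusted p (limma). The ring's mean deviation was −0.17, −0.093 and −0.21 on the MOTS-c arrays, against 0.26, 0.21 and −0.0050 on the vehicle arrays. All 3 MOTS-c arrays were below all 3 vehicle arrays. Against vehicle 3 alone the median was −0.14, with 6 of 7 genes lower. The dividing-cell markers were lower on the same arrays, with mean deviations of −0.66, −0.23 and −0.59 for MOTS-c, against 0.80, 0.26 and 0.42 for vehicle; their part in the ring's values was not tested.

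Lsm3, a subunit of this ring and of the cytoplasmic ring with LSM1 that takes part in mRNA decay, had the lowest difference of the family. Its levels were 10.98, 10.97 and 10.73 with MOTS-c, against 11.44, 11.53 and 11.29 with vehicle. The groups did not overlap (difference −0.53 ± 0.14, 1.44-fold lower, adjusted p = 0.10, limma; −0.40 against vehicle 3 alone). Lsm2, also in both the nuclear and the cytoplasmic ring, had 12.12, 12.56 and 12.36 with MOTS-c and 12.88, 12.97 and 12.54 with vehicle. MOTS-c 2 was just above vehicle 3, so the groups overlapped (difference −0.45 ± 0.18, adjusted p = 0.18, limma; −0.19 against vehicle 3 alone). Lsm2's 3 probes gave like differences, −0.45, −0.46 and −0.52, over levels that spanned 7.18 log2 units. With normexp background correction in place of the authors' values they were −0.48, −0.44 and −0.22, the dimmest probe being the last. Lsm8, which marks the nuclear ring, had −0.42 ± 0.16 and Lsm4 had −0.37 ± 0.15, both without overlap. Lsm5 and Lsm7 had smaller differences (−0.20 and −0.19), with overlapping groups.

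Lsm6 had the brightest probe of the LSM genes and the smallest difference of the ring, at 14.50, 14.51 and 14.54 with MOTS-c and 14.61, 14.62 and 14.42 with vehicle (difference −0.032 ± 0.13, adjusted p = 0.89, limma). Its sign turned against vehicle 3 alone, to 0.10. A second Lsm6 probe shares a stretch of 25 bases or more with an array probe of no named gene, as does the brightest Snrpd2 probe, so signal from a near copy could not be separated for these probes.

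Lsm10 and Lsm11 take the place of 2 Sm proteins in the U7 snRNP, which processes the ends of histone mRNAs and does no splicing. Both were higher in mean with MOTS-c, opposite to the LSM2 to LSM8 ring. Lsm10 had levels of 11.97, 11.90 and 11.90 with MOTS-c, against 11.10, 11.42 and 12.04 with vehicle. Vehicle 3 was above all MOTS-c arrays, and vehicle 1 and 2 below them (difference 0.41 ± 0.24, adjusted p = 0.31, limma); against vehicle 3 alone the sign turned (−0.12). Lsm11 had 8.82, 9.01 and 8.91 with MOTS-c and 8.24, 8.43 and 8.59 with vehicle. These groups did not overlap (difference 0.50 ± 0.15, 1.41-fold higher, adjusted p = 0.12, limma), and the difference against vehicle 3 alone was 0.32. This holds for Lsm11's brighter probe; the other went the opposite way, as given with the probe pairs below. Lsm1, of the cytoplasmic ring, had 0.22 ± 0.16, and Lsm12, Lsm14a and Lsm14b lay between −0.12 and 0.10.

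The SF3 subunits had the narrowest range of differences of the 5 families. Their 9 differences ran from −0.30 to 0.14, 6 were positive, and none had an unadjusted p under 0.05. Sf3b6, the small SF3B protein that touches the branch point, was the one gene of the family without overlap: 12.62, 12.70 and 12.48 with MOTS-c, against 12.99, 12.91 and 12.79 with vehicle (difference −0.30 ± 0.13, adjusted p = 0.21, limma; −0.19 against vehicle 3 alone). Sf3b4 had 11.76, 11.86 and 12.005 with MOTS-c and 11.80, 12.19 and 11.73 with vehicle. The spread between its vehicle arrays exceeded its difference of −0.035 ± 0.17, whose sign turned against vehicle 3 alone (0.15).

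Sf3b2, which contacts the pre-mRNA near the branch point, had both the brightest probe and the highest difference of the SF3 genes. Its levels were 14.45, 14.37 and 14.50 with MOTS-c and 14.24, 14.40 and 14.27 with vehicle, with MOTS-c 2 below vehicle 2 (difference 0.14 ± 0.13, adjusted p = 0.51, limma). Sf3a2, of the SF3A trimer, had 12.29, 12.26 and 12.51 with MOTS-c and 12.11, 12.54 and 12.16 with vehicle, and vehicle 2 was the highest of the 6 arrays (difference 0.087 ± 0.17). Both differences turned negative with the 75th percentile scaling, at −0.11 and −0.011. Sf3b1, the large subunit of SF3B that holds the branch point, had a difference of 0.055 ± 0.14. On vehicle 3 the family's mean deviation was −0.13, the lowest of the 6 arrays, and 8 of 9 genes were higher with MOTS-c when set against vehicle 3 alone.

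**Figure D2:**
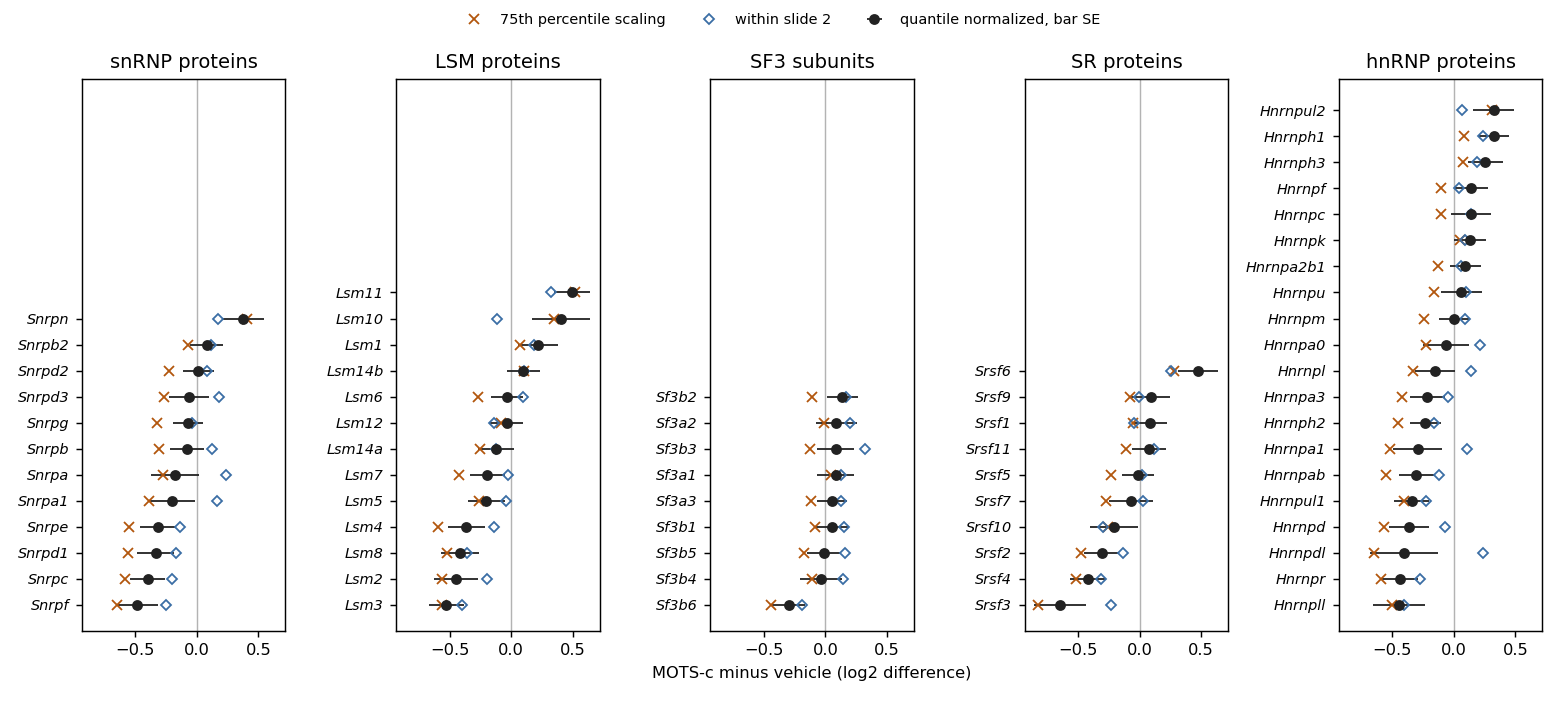
Log2 difference (MOTS-c minus vehicle) of each of the 64 member genes by its brightest probe: circles, quantile-normalized values with SE; crosses, 75th percentile scaling; diamonds, against vehicle 3 within slide 2. All 7 LSM2 to LSM8 genes lie left of 0 in circles and crosses, Lsm10 and Lsm11 right of it, and most crosses lie left of their circles.

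Of the 10 SR genes, 6 were lower and 4 higher, and the family held both a lower and a higher gene with an unadjusted p under 0.05. Srsf3, the smallest SR protein, which also takes part in mRNA export, had the lowest difference of all 64 genes. Its levels were 12.63, 12.89 and 12.58 with MOTS-c, against 13.64, 13.47 and 12.93 with vehicle. The groups were just separated, with vehicle 3 little above MOTS-c 2 (difference −0.65 ± 0.21, 1.57-fold lower, adjusted p = 0.13, limma). Against vehicle 3 alone it was −0.23. The second Srsf3 probe, almost as bright, gave −0.36 against all 3 vehicle arrays and −0.088 against vehicle 3 alone. On that probe the groups overlapped, with MOTS-c 2 above vehicle 3.

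Srsf4, an SR protein with a long arginine-serine tail, had 11.96, 12.12 and 12.11 with MOTS-c and 12.70, 12.38 and 12.38 with vehicle, without overlap (difference −0.42 ± 0.15, adjusted p = 0.15, limma; −0.31 against vehicle 3 alone). Srsf6, a close relative of Srsf4, went the other way, at 13.66, 13.90 and 13.99 with MOTS-c, against 13.22, 13.31 and 13.59 with vehicle. Every MOTS-c array was above every vehicle array (difference 0.48 ± 0.16, 1.39-fold higher, adjusted p = 0.14, limma; 0.26 against vehicle 3 alone). Its second probe gave 0.42 ± 0.17, there with MOTS-c 1 just below vehicle 3. Srsf6 also had the brightest probe of the SR genes.

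Srsf9 had 13.19, 13.54 and 13.41 with MOTS-c and 13.09, 13.40 and 13.39 with vehicle, and its sign was not settled: the difference of 0.091 ± 0.16 turned to −0.080 with the 75th percentile scaling and to −0.0075 against vehicle 3 alone. Srsf1, Srsf5, Srsf7 and the SR-like Srsf11 lay between −0.071 and 0.082. Srsf10, an SR-like protein that represses splicing when dephosphorylated, had −0.21 ± 0.19, with overlapping groups. Its dimmer probe gave −0.74 ± 0.22 without overlap (adjusted p = 0.11, limma).

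The hnRNPs bind nascent transcripts and are given by type. Of the 7 genes of the A, B and D types, 6 were lower with MOTS-c, with a median of −0.30. Their mean deviation was −0.15, −0.10 and −0.085 on the MOTS-c arrays, against 0.24, 0.26 and −0.16 on the vehicle arrays. Vehicle 3 was the lowest array of all 6, so the lower mean came from setting the MOTS-c arrays against vehicle 1 and 2, and the median against vehicle 3 alone was 0.061. Hnrnpa3, an A-type protein with the brightest probe of all 64 genes, was at 15.55, 15.65 and 15.54 with MOTS-c and 15.98, 15.78 and 15.62 with vehicle; vehicle 3 was below MOTS-c 2 (difference −0.22 ± 0.14, adjusted p = 0.36, limma). Hnrnpa1, the textbook binder of splicing silencers, had −0.30, or 0.10 against vehicle 3 alone. Hnrnpd, which also binds AU-rich elements, and Hnrnpab had −0.36 and −0.31, both without overlap, and −0.070 and −0.12 against vehicle 3 alone.

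Of the 4 genes of the H and F types, which bind runs of G, 3 were higher with MOTS-c and none of the 4 had overlapping groups, where 16.3% of all genes were separated downward and 19.4% upward. In the top bin by level, 930 of 4090 genes were separated downward and 1041 upward. Hnrnph1 had 15.12, 15.24 and 15.27 with MOTS-c and 14.84, 14.84 and 14.97 with vehicle (difference 0.32 ± 0.13, 1.25-fold higher, adjusted p = 0.17, limma). Hnrnph3 and Hnrnpf had 0.25 and 0.14, and Hnrnph2, on the X chromosome, −0.23. With the 75th percentile scaling Hnrnpf turned to −0.10, and Hnrnph1 and Hnrnph3 were reduced to 0.086 and 0.070.

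Hnrnpll, which is known for the exon choice in CD45 during lymphocyte activation, had levels of 11.35, 11.85 and 11.30 with MOTS-c, against 12.23, 11.71 and 11.91 with vehicle. MOTS-c 2 lay above vehicle 2, so the groups overlapped (difference −0.45 ± 0.21, adjusted p = 0.23, limma). Its 4 probes were all lower in mean, from −0.55 to −0.15. The T and B cell markers were higher on the same MOTS-c arrays, and no relation between them was tested.

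Hnrnpr had 12.65, 12.64 and 12.60 with MOTS-c and 13.29, 13.01 and 12.91 with vehicle, a tight MOTS-c group below all vehicle arrays (difference −0.44 ± 0.15, adjusted p = 0.13, limma; −0.28 against vehicle 3 alone). Its 7 probes all had negative differences, from −0.44 to −0.027, the brightest probe giving the lowest. In the U type, Hnrnpul2 was higher, at 10.75, 10.77 and 10.87 with MOTS-c and 10.20, 10.49 and 10.73 with vehicle. Vehicle 3 was only just below the MOTS-c arrays (difference 0.32 ± 0.17, adjusted p = 0.26, limma; 0.068 against vehicle 3 alone). Its dimmer probe was of opposite sign, at −0.10 ± 0.16. By their brightest probes, Hnrnpu, Hnrnpm, Hnrnpk and Hnrnpc lay between 0.0020 and 0.14. A dimmer Hnrnpk probe gave −0.25 ± 0.14 without overlap, and the other Hnrnpu probes gave −0.091 and −0.018.

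Vehicle 3, the one vehicle array on the slide of the MOTS-c arrays, gave snRNP and hnRNP medians of the opposite sign to those from the other 2 vehicle arrays. Against vehicle 1 alone the median difference of the snRNP genes was −0.25 and against vehicle 2 alone −0.28, but against vehicle 3 alone it was 0.10. The hnRNP medians were −0.20, −0.20 and 0.077 against vehicle 1, 2 and 3. For LSM genes all 3 medians were negative, at −0.29, −0.10 and −0.12. Vehicle 3 was below both other vehicle arrays for 36 of 64 member genes (56.2%), 10 of them among the 12 snRNP genes, and for 28.8% of all genes. It was nearer to the MOTS-c mean than to the mean of vehicle 1 and 2 for 38 member genes (59.4%) and 48.6% of all genes. A slide and the arrays on it cannot be told apart with 1 vehicle array on slide 2. Vehicle 3 also had a mean deviation of 3.01 in the pancreas and fat markers, against 0.12 and −0.84 on vehicle 1 and 2. In the neutrophil markers it had 0.84, against −0.65 and −1.66. The part of these in the values against vehicle 3 alone was not tested.

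**Figure D3:**
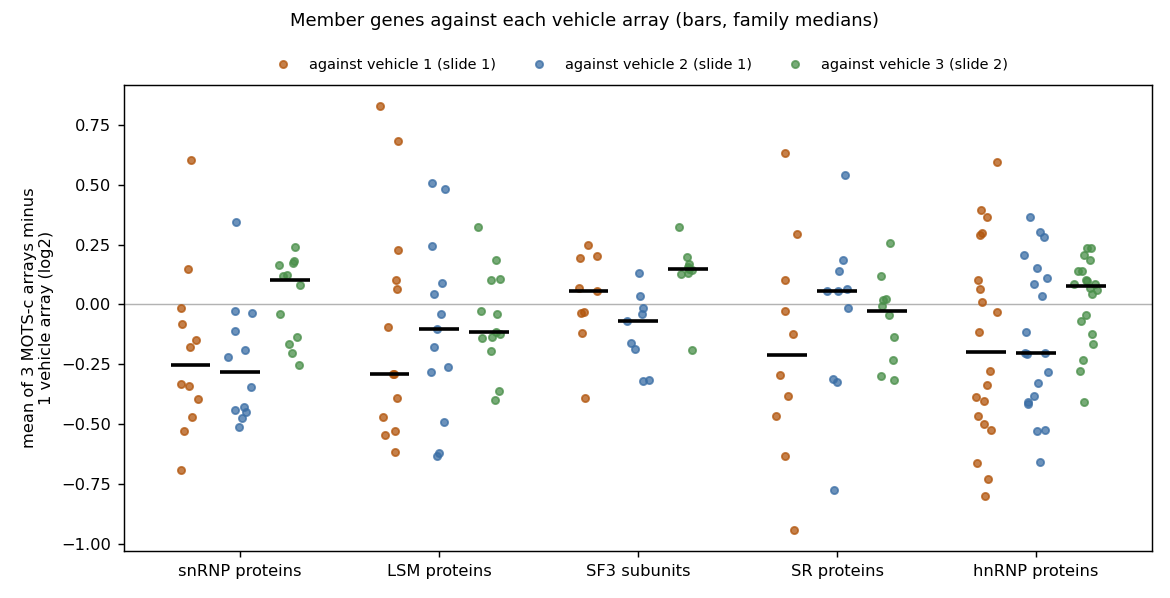
Mean of the 3 MOTS-c arrays minus a single vehicle array (log2) for every member gene, by family and vehicle array; bars are family medians. The snRNP and hnRNP medians lie below 0 against vehicle 1 and 2 and above 0 against vehicle 3, while the LSM medians lie below 0 against all 3.

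The scaling between arrays shifted the bright genes. With log2 processed signal minus each array's 75th percentile, in place of quantile normalization, 53 of the 64 member genes were lower and 11 higher, and their median was −0.25, against −0.063 with quantile normalization. The top bin of all genes by level had a median of −0.11 with the 75th percentile scaling and 0.049 with quantile normalization, so the scalings also disagreed for bright genes outside the families. The median over all genes was 0.031 and 0.062 under these scalings. The SF3 median turned from positive to negative (−0.11), and the LSM2 to LSM8 and U7 medians kept their signs, at −0.52 and 0.43.

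The spread between probes of a gene was close to that of the table. In the 41 genes with 2 or more probes, the range of differences over the probes of a gene had a median of 0.24, beside 0.22 over the 6930 such genes of the table. All probes were negative for 18 of the 41 genes, all positive for 10, and of both signs for 13 (31.7%, beside 29.1% of all such genes). The range passed 0.5 in 8 of the 41 (19.5%, beside 19.8%). The levels of a gene's probes spanned more, a median of 3.83 log2 units against 3.10 over all such genes. In 26 of the 41 genes (63.4%) the dimmest probe had a lower difference than the brightest, where 58.1% of all such genes did. On the dimmest probe, vehicle 1 was above the mean of vehicle 2 and 3 in 33 of the 41 genes (80.5%, beside 58.3% of all such genes), and on the brightest in 30 (73.2%, beside 48.7%). Vehicle 1 also had the lowest 75th percentile of processed signal, 671, against 883 to 913 on the MOTS-c arrays and 831 and 841 on the other vehicle arrays; the part of this in the probes' differences was not tested. The probe nearest the 5′ end had a lower difference than the one nearest the 3′ end in the same number of genes, 26 of 41, beside 56.8% of all.

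No member gene passed the test of disagreement between its probes (limma's diffSplice with the Simes method, adjusted p under 0.05), beside 13 of 6930 genes (0.188%) that did. At an unadjusted p under 0.05, 3 of the 41 genes did (Lsm11, Srsf2 and Hnrnph3), beside 9.65% of all such genes. Lsm11 came nearest, with an adjusted p of 0.28 and an unadjusted p of 0.0061. Without vehicle 3, 2 member genes passed, Snrpd3 (adjusted p = 0.012) and Lsm11 (adjusted p = 0.040), and the number of all genes that passed grew to 228. In that fit each group lay on a slide of its own, so group and slide could not be told apart. In simulated data the test also called genes without a change, as given under the processing.

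Snrpd3, a Sm ring subunit, had the widest range with quantile normalization (1.15). With the 75th percentile scaling its range was 0.89 and that of Srsf2 1.02, and against vehicle 3 alone its range was 0.24, with Srsf11 widest at 0.68. Its brighter probe had 13.57, 13.57 and 13.33 with MOTS-c and 13.64, 13.71 and 13.31 with vehicle, close together (difference −0.062 ± 0.16). Its dimmer probe, shown above, lies further toward the 3′ end, in a span of 1709 bases over both probes. It had 5.50, 5.05 and 5.04 with MOTS-c, against 7.16, 6.81 and 5.26 with vehicle. Vehicle 3 was among the MOTS-c arrays there, and vehicle 1 and 2 were far above (difference −1.21 ± 0.47, −0.061 against vehicle 3 alone, −0.57 with normexp). Against vehicle 3 alone the brighter probe had 0.18.

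Srsf2, an SR protein that marks nuclear speckles, had a brighter probe at 12.82, 12.98 and 12.97 with MOTS-c and 13.39, 13.25 and 13.06 with vehicle, without overlap (difference −0.31 ± 0.14). Its dimmer probe had 5.86, 5.56 and 6.17 with MOTS-c and 5.36, 4.98 and 5.81 with vehicle. It was of opposite sign, with overlapping groups (0.48 ± 0.25), 0.054 against vehicle 3 alone and 0.21 with normexp. For Lsm11, the dimmer probe had 7.31, 7.38 and 7.31 with MOTS-c and 7.84, 7.54 and 7.31 with vehicle. Vehicle 3 again lay within the MOTS-c range, so that the difference of −0.23 ± 0.16 became 0.020 against vehicle 3 alone, while the brighter probe with the polyadenylation signal kept its sign. The 2 Lsm11 probes together span 5742 bases of the genome.

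Hnrnph3 followed the same form. Its brighter probe had 13.41, 13.47 and 13.75 with MOTS-c, against 13.25, 13.26 and 13.35 with vehicle, without overlap (difference 0.25 ± 0.14). The dimmer one had 8.84, 8.73 and 8.93 with MOTS-c and 9.53, 9.13 and 8.85 with vehicle, with vehicle 3 inside the MOTS-c range (difference −0.34 ± 0.19). Hnrnpul1, a U-type protein, was lower in mean by both probes. The brighter had 11.32, 11.43 and 11.54 with MOTS-c and 11.95, 11.71 and 11.66 with vehicle (difference −0.34 ± 0.14). The dimmer had 7.11, 6.97 and 7.04 with MOTS-c, against 8.40, 7.96 and 7.45 with vehicle. No array of either group overlapped the other group, and −0.90 ± 0.24 carried the smallest adjusted p of any member probe (0.102, limma). Against vehicle 3 alone it was −0.41.

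Sf3b3, the SF3B subunit with the most probes among the 6 genes of widest range, had 2 brighter probes with small positive differences and 2 dimmer probes with negative ones. The brightest had 13.62, 13.79 and 13.72 with MOTS-c and 13.74, 13.75 and 13.39 with vehicle (difference 0.084 ± 0.15). The next had 11.20, 11.43 and 11.55 with MOTS-c and 11.46, 11.28 and 11.12 with vehicle (difference 0.11 ± 0.16). Of the dimmer probes, one had 7.20, 7.03 and 7.32 with MOTS-c and 7.79, 7.31 and 7.38 with vehicle (difference −0.31 ± 0.17). The dimmest had 5.80, 5.75 and 5.78 with MOTS-c, against 6.71, 6.21 and 5.70 with vehicle (difference −0.43 ± 0.25), and vehicle 3 was the lowest array on it. The 4 probes span 35193 bases of the genome. The differences of the brighter probes were closer to each other than to those of the dimmer probes, which lie between or beside them.

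**Figure D4:**
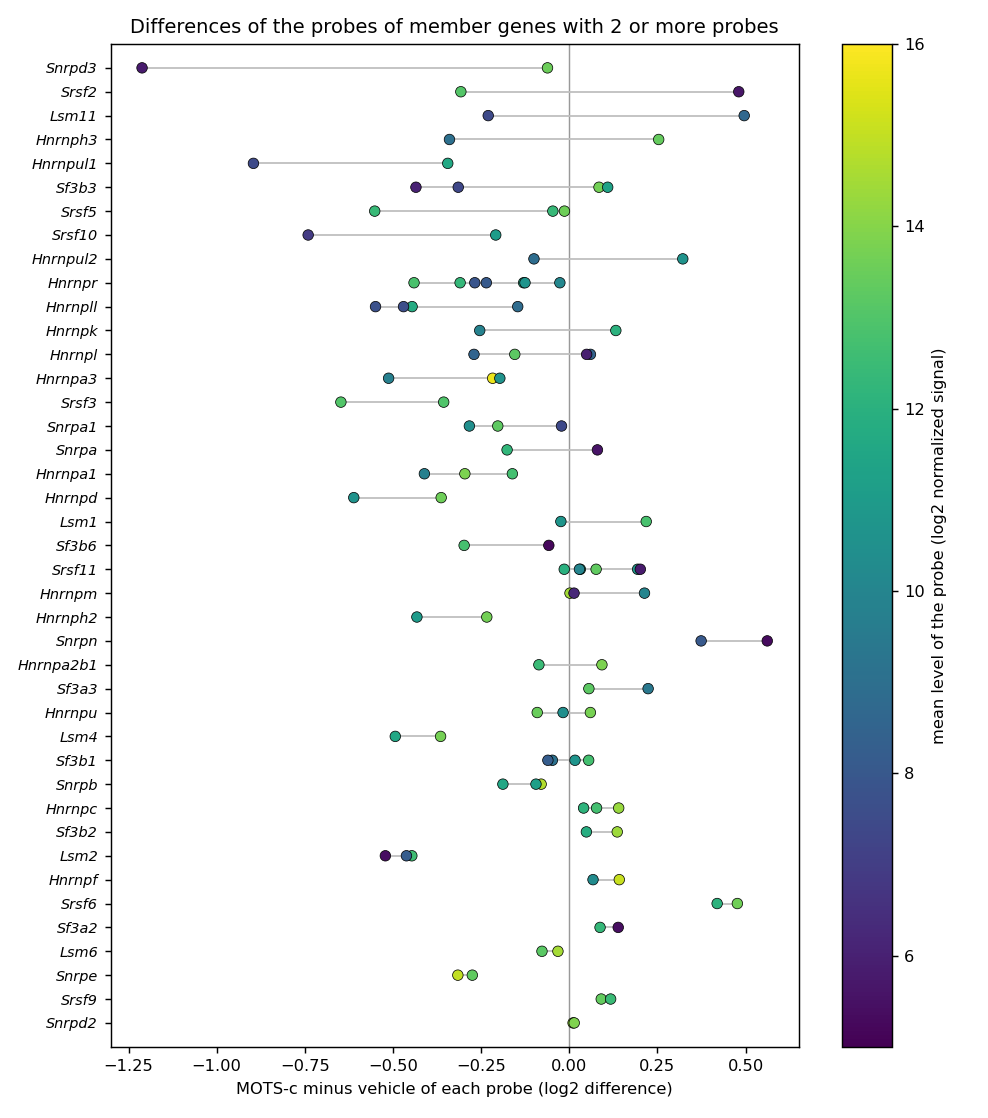
Log2 difference (MOTS-c minus vehicle) of every probe of the 41 member genes with 2 or more probes, ordered by range, with the probe's mean level in colour. With these values Snrpd3 has the widest range, from −1.21 in its dim probe to −0.062 in its bright one, and Lsm2 and Hnrnpr keep 1 sign over all their probes.

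Features of the probes were read from the array design. The member probes had a median GC content of 40%, beside 43.33% over all probes. The genomic span of 15 of 131 member probes (11.5%) was longer than the probe, beside 7.91% of all probes with a span. Among them was a 60-base Snrpd2 probe with a span of 61, and introns were not looked up. All 131 were well above background on all 6 arrays, as was every probe of the table. Another 4 array probes of these symbols were outside the table; 3 belong to Lsm14b, Snrpn and Srsf1, and the fourth to Srsf12, a gene with no probe in the table. The Srsf12 probe was well above background on 3 MOTS-c and 2 vehicle arrays.

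Among 139 other genes of the splicing pathway, 77 were lower and 62 higher with MOTS-c, with a median difference of −0.040. None passed the adjusted threshold, and 24 lower and 13 higher genes had an unadjusted p under 0.05, where 13% of all genes were lower and 13.3% higher at that threshold. Of the 17 genes of the U4/U6.U5 tri-snRNP, whose U6 carries the LSM ring, 15 were lower (median −0.12), and 10 of 17 were so against vehicle 3 alone. Of the 16 SR protein kinases and SR-related genes, 12 were higher (median 0.25), and 9 against vehicle 3 alone. The 17 genes of Sm ring assembly were divided, 7 lower and 10 higher. The other lists were U1, U2 and the 3′ splice site (7 of 15 lower), the minor spliceosome (5 of 9 lower), the Prp19 complex and catalytic steps (16 of 24 lower), the exon junction complex (7 of 10 lower) and other regulators (16 of 31 lower).

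The lowest difference among these genes was that of Cirbp, a cold-inducible RNA-binding protein, with levels of 12.99, 12.003 and 12.52 with MOTS-c and 14.11, 14.52 and 12.20 with vehicle. Vehicle 1 and 2 on slide 1 were above all 4 arrays of slide 2 (difference −1.11 ± 0.59, adjusted p = 0.27, limma), and the sign turned against vehicle 3 alone (0.30). Rbm3, a second cold-inducible protein, had 14.07, 14.25 and 14.03 with MOTS-c, against 15.61, 14.88 and 14.69 with vehicle. All MOTS-c arrays were below all vehicle arrays (difference −0.95 ± 0.25, adjusted p = 0.10, limma; −0.58 against vehicle 3 alone).

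The highest difference was that of Rbm5, a regulator of alternative splicing, at 14.19, 14.32 and 14.60 with MOTS-c and 13.46, 13.32 and 14.13 with vehicle. The groups did not overlap, though vehicle 3 was just below MOTS-c 1 (difference 0.73 ± 0.24, adjusted p = 0.13, limma; 0.24 against vehicle 3 alone). Srpk3, an SR protein kinase known from muscle, had 10.55, 10.45 and 10.54 with MOTS-c and 9.09, 10.82 and 9.56 with vehicle; vehicle 2 was the highest of the 6 arrays (difference 0.69 ± 0.41). Without vehicle 1 the Srpk3 difference was 0.32. Without vehicle 2 it was 1.19, and passed the threshold (adjusted p = 0.049, limma), as 425 genes of the table did (2.6%). Prpf40b, a U1-associated protein, had 7.82, 8.05 and 8.11 with MOTS-c, against 7.21, 7.50 and 7.44 with vehicle. It was separated and nearly as large against vehicle 3 alone (0.56) as against all 3 vehicle arrays (0.61 ± 0.15, adjusted p = 0.092, limma).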

How the data were processed

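Agilent 1-colour arrays (62976 spots) were scanned with Feature Extraction 11.0.1.1, per the file headers. The authors' deposited table gives log2 values, quantile normalized over the 6 arrays: the sorted columns differ by at most 0.000644. The authors also computed a p-value and a signed fold score per probe from these values, as deposited; the score is the linear ratio, or minus its inverse where MOTS-c is lower. The scanner's processed signal intensity, deposited per array, served for the alternatives, and 61.8% to 64% of spots were well above background, with no saturated spot.

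The rule for the members names the log2 columns, which were therefore the main values. All 31692 probes (27151 with a symbol) were fitted with limma 3.58.1 in R 4.3.3 (lmFit, eBayes, two-sided, Benjamini-Hochberg adjustment, threshold 0.05); 3 arrays against 3 cannot go below an exact permutation p of 0.1. Probe disagreement was tested with diffSplice. The fits were tested on simulated data. Where each simulated probe had its own spread (SD), diffSplice called 128 genes given a true disagreement and 30 other genes. The alternative with each probe's own variance called 80 and 4 there. Where all probes of a gene shared the same SD, diffSplice called 138 and 7, and the alternative 82 and 2. The simulated noise was independent and without a slide effect, and the changes were wider than the median range over a member gene's probes. These counts therefore do not give the power of the test in the present data. Alternatives were 75th percentile scaling, normexp (offset 50, on the median signals, since the files hold no mean signal) with quantile normalization, the slide or the replicate number as a block, each array left out, filters on dim probes, other ways to stand for a gene, and the authors' p-values. Values in every array are given for the genes of a fixed rule: in each family the 2 highest, the 2 lowest and the brightest gene, the 6 genes with the widest range over probes, and the 3 highest and 3 lowest other splicing genes. One gene of this rule is not reported here. The members, lists and rule were chosen with earlier results of these data known. Replicate numbers come from the titles; the descriptions number vehicle 3 and MOTS-c 3 otherwise. Probe positions (mm9) were copied from the array files, and all 131 member probes matched a RefSeq gene ID.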

Additional observations from a re-analysis of the deposited data

How the results depend on the processing

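Adjusted-threshold counts over all probes were 0, but 1 with the slide as a block, 2 with 75th percentile scaling over all probes well above background, and 0 to 772 with an array left out, the 772 without vehicle 2; none of the 772 was a member probe. Unadjusted counts were 8198, 4261 by the authors' p-values, 3114 with the slide block, and 4790 to 9462 with an array left out. Signal over background limits the dim probes.

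Family medians varied with the settings. With 75th percentile scaling, over the table or over all probes well above background, they were −0.24 for SR genes, −0.29 for hnRNPs, −0.32 for snRNP genes, −0.11 for SF3 genes and −0.26 for LSM genes. The slide as a block and slide 2 alone give the same difference, MOTS-c against vehicle 3 alone, since slide 1 holds only vehicle arrays. In this comparison the medians were 0.077 for hnRNPs, 0.10 for snRNP genes and 0.15 for SF3 genes. The mean over a gene's probes gave 0.0055 for SR and −0.0094 for SF3 genes, every probe counted alone 0.0075 for SR and −0.19 for LSM genes, and normexp −0.084 for LSM genes. With an array left out, the medians ran from −0.093 to 0.014 for SR genes, −0.23 to −0.041 for hnRNPs, −0.28 to −0.055 for snRNP genes, 0.0075 to 0.11 for SF3 genes and −0.17 to −0.062 for LSM genes. The lowest snRNP, hnRNP and SF3 medians came without vehicle 3, where group and slide could not be told apart, and the highest without vehicle 2. The SR extremes came without vehicle 2 and without vehicle 1, and the LSM extremes without MOTS-c 2 and without MOTS-c 1. Other splicing genes had −0.14 with 75th percentile scaling, 0.0047 with the slide block or within slide 2, and −0.10 to −0.019 with an array left out.

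The count of genes with disagreeing probes was 13, but 5 with the slide block, 4 within slide 2, 0 with the replicate block, 2 among the upper 3 quartiles of level, and 0 with each probe's own variance, an alternative chosen after seeing the data; with an array left out it ran from 0 to 228, and from 0 to 2 among member genes.

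Of the 34 genes of the rule for values by array, 24 kept their sign under every alternative run for single genes. The replicate block and the filter to the upper 3 quartiles of level could not change a difference, so they add nothing to this count. With 75th percentile scaling over the table, or over all probes well above background, Srsf9 was −0.080, Snrpb2 −0.069, Sf3a2 −0.011, Sf3b2 −0.11 and Sf3b3 −0.13. The slide block and slide 2 alone were again the same comparison with vehicle 3. There Srsf9 was −0.0075, Sf3b4 0.15, Lsm10 −0.12, Lsm6 0.10, Snrpd3 0.18 and Cirbp 0.30. With an array left out, Srsf9 ran from −0.011 to 0.18, Sf3b4 from −0.12 to 0.11, Lsm6 from −0.099 to 0.0036, Snrpd3 from −0.18 to 0.018 and Sf3b3 from −0.035 to 0.15. The causes were not tested. Deviations of same-numbered arrays had correlations of −0.18, −0.0024 and −0.087, which cannot decide pairing with so few arrays per group and uncertain numbering. The replicate block reversed none of the 34 genes, which was fixed in advance, as each replicate number holds an array of each group.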
